A study of Mus musculus with 12 samples.

Results

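The genes described here are the clustered replication-dependent histone genes of the mouse, measured in mandibular lymph nodes during contact allergy. A gene was a member if its symbol begins with Hist1h, Hist2h, Hist3h or Hist4h and it is annotated as protein-coding, which gave 67 of the 56941 genes in the deposited table. They comprise 6 genes for the linker histone H1, 18 for H2A, 18 for H2B, 12 for H3 and 13 for H4. The symbol gives the genomic cluster: 54 members lie on chromosome 13 (cluster 1), 10 on chromosome 3 (cluster 2), 2 on chromosome 11 (cluster 3) and 1 on chromosome 6 (cluster 4). In the annotation 63 of the 67 have a single exon.

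Wild-type (WT) mice were compared with mice lacking the microRNA miR-451a (KO), and every animal was sensitized with the hapten 1-fluoro-2,4-dinitrobenzene (DNFB). DNFB at 0.5%, 100 µl, was applied to the shaved abdomen on days 0, 1 and 2. Nodes of WT_se and KO_se were taken on day 9 without challenge. WT_DTH and KO_DTH received 20 µl of 1% DNFB on the left ear on day 9 and were taken 24 hours later, on day 10, so challenge and day of harvest cannot be told apart. Each of the 4 groups held 3 libraries, 12 in all. The strain, age and type of knockout allele are not given in the sources used here, nor is it said whether different animals gave the libraries of a group. A p-value here therefore reflects differences among libraries, which may be technical. The targeted microRNA was not analysed here and gave no check of the genotype labels.

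Histones are the proteins that package DNA. H2A, H2B, H3 and H4 form the core of the nucleosome, and H1 binds the linker DNA between cores. A cell that copies its DNA must double its histones, so the clustered genes are transcribed mainly in S phase. Their mRNAs are unusual in ending, as a rule, in a conserved stem-loop in place of a poly(A) tail. The stem-loop-binding protein SLBP and the U7 small nuclear ribonucleoprotein direct the cleavage after the loop, and the mRNA is degraded quickly when DNA synthesis stops. In a reactive lymph node, dividing lymphocytes are a known source of such transcripts. Some clustered genes can also give polyadenylated transcripts in cells that are not dividing, among them Hist1h1c, Hist1h2bc and Hist2h2be.

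The stem-loop was searched for in the annotated 3′ UTRs, because the form of the mRNA end bears on how such genes are captured in a library. The letters searched were GGNNNTTTNNANNNCC on the transcribed strand, where N is any base, with all 6 bases of the first arm of the stem complementary to the second. Of 52 members with an annotated 3′ UTR of at least 16 bases, 44 (84.6%) held a match. Among 20914 other genes with such a UTR only 17 (0.0813%) did, one of them H2afx, which codes for the variant H2A.X. The remaining 15 members had no annotated UTR long enough to search. The sites below belong to the members whose values are described most closely, with H2afx for comparison; capitals mark the stem and loop, and the flanks on both sides are 5 bases long. The sequences come from GENCODE M21 transcripts on GRCm38.
Hist1h1c: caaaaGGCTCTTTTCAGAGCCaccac
Hist1h1e: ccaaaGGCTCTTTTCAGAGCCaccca
Hist3h2a: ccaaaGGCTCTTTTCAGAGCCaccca
Hist3h2ba: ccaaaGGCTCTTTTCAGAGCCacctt
Hist1h3a: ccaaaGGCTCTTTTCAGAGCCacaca
Hist1h4i: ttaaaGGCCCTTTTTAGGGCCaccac
H2afx: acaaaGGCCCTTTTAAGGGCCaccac

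The loop letters of Hist1h1c, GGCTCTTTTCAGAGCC, were the most frequent, in 26 of the 44 members. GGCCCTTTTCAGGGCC followed with 7 and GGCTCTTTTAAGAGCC with 6. The letters of Hist1h4i, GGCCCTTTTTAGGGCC, occurred in 2 members. No match was found in Hist1h2bc and Hist2h2be. In 22 members the annotation ran at least 100 bases past the loop, and 13 of these UTRs held AATAAA, the commonest polyadenylation signal. In the other 22 members with a loop the annotation ended sooner, and 0 held AATAAA.

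The promoters were also read from RefSeq (GRCm38.p6; 300 bases around the start of 62 matched members), with motifs counted on both strands. CCAAT, the letters of the CCAAT box, was in 53 of 62 member promoters (85.5%) against 37.9% of all 27025 RefSeq promoters. All 6 H1, 18 H2A, 16 H2B and 10 H3 promoters held it, and 3 of 12 H4 promoters did. The TATA box letters TATAAA were in 35 (56.5%; 14.2% of all). The octamer ATTTGCAT, bound by POU2F1, was in 13 (20.97%; 1.75% of all), of which 7 were H2A and 6 were H2B promoters. The promoters are not all separate, since windows of neighbouring genes can overlap and the same site can then count for both genes. Hist1h2ae and Hist1h2bg share an octamer and a TATAAA in this way. The upstream sequences of Hist1h2bq and Hist1h2br are identical. These are matches of letters, counted here without any test.

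Libraries held 36946696 to 58405576 estimated counts. The 67 histone genes together took 5104 to 9619 counts per library, which is 0.0128 to 0.0175% of all counts. Transcripts of salivary gland, which lies beside this node, were in every library: 19 salivary markers, with 0 of them at 0 throughout, took 6.11 to 13.4% of counts in the WT_se libraries and 1.86 to 2.93% in WT_DTH. In the knockout they took 2.49 to 6.12% in KO_se and 4.01 to 8.92% in KO_DTH. Mitochondrially encoded genes took 13.8 to 19.1%, 4.37 to 5.84%, 11.9 to 15.96% and 5.57 to 15.7% in the same order. The 10 lymphocyte markers, all detected, took 0.403 to 0.446%, 0.522 to 0.555%, 0.465 to 0.553% and 0.383 to 0.544%. Levels are given as CPM, the count scaled to a common library total, with totals adjusted by TMM (the trimmed mean of M values). That scaling matters here, since with plain totals the median gene shifted by 0.37 in log2 between WT_se and WT_DTH, and the share of called genes that were higher went from 52.1 to 86.7%. For the other comparisons that share went from 60.1 to 73.5% (challenge in the knockout), from 72.9 to 94.8% (genotype when sensitized), from 85.8 to 67.2% (genotype when challenged) and from 79.1 to 21.8% (interaction).

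Most clustered histone genes were close to silent in these libraries, and a few carried the signal. Hist1h1c, an H1 gene, held 51.7% of all histone CPM, and with Hist3h2a, an H2A gene, 72.9%. Adding Hist1h2bc and Hist2h2be (both H2B), Hist1h4i (H4) and Hist3h2ba (H2B) brought the share to 86.9%, so the remaining 61 genes shared the rest. Cluster 3 on chromosome 11, with 2 members, held 23.4% of histone CPM, and cluster 1, with 54 members, 69.6%. The median member had a mean of 11.9 counts per library, 8 members reached 50 and 6 reached 100. At the other end, 9 members stayed under 10 counts in every library, and 2 of them, Hist2h2aa2 and Hist1h2aa, had 0 counts in all 12. The 0 of Hist2h2aa2 is uncertain because of sequence like that of Hist2h2aa1, described below.

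**Figure D1:**
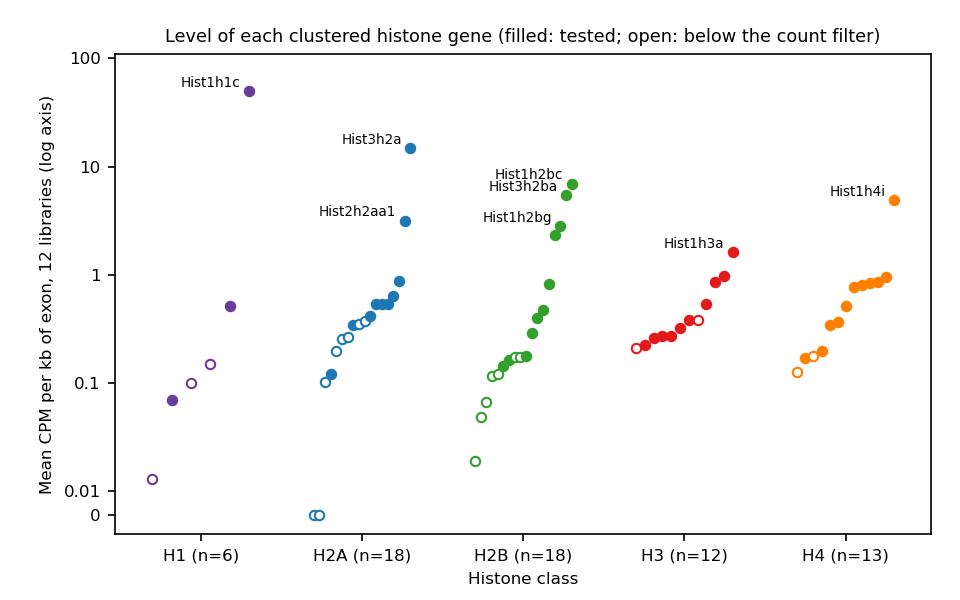
Level of each of the 67 members as mean CPM per kilobase of exon over the 12 libraries, on a log axis with 0 drawn below it, by histone class; filled points were tested and open points fell below the count filter. Hist1h1c stands at 49.8 CPM per kilobase and the highest H3 gene, Hist1h3a, at 1.62.

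Levels between genes were compared per kilobase of exon. The median member had 0.343 CPM per kilobase, and the median of the 45 members that passed the count filter was 0.536, against 2.13 for all tested genes with a known length. Among linker histone genes Hist1h1c stood at 49.8 CPM per kilobase, followed by Hist1h1e at 0.513, Hist1h1a at 0.148 and Hist1h1b at 0.0997. Hist1h1a and Hist1h1b did not pass the count filter. Hist1h1d, annotated 4884 bases past its loop, did pass it and ranked below them per kilobase. Among H2A genes the order was Hist3h2a (14.8), Hist2h2aa1 (3.16), Hist1h2ag (0.867) and Hist1h2ae (0.630). Among H2B genes it was Hist1h2bc (6.96), Hist3h2ba (5.49), Hist1h2bg (2.84) and Hist2h2be (2.32). The H3 genes, whose product carries many of the regulated histone marks, were low throughout: Hist1h3a had 1.62 CPM per kilobase, Hist1h3c 0.969, Hist2h3c2 0.852 and Hist1h3i 0.539. Of the H4 genes Hist1h4i had 4.91, Hist1h4h 0.943, Hist1h4b 0.855 and Hist1h4n 0.831. The core histones assemble in equal numbers in a nucleosome, whereas the highest RNA level in a class ran from 1.62 (H3) to 14.8 (H2A) CPM per kilobase.

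The 3 members known for expression in germ cells served as a check of low levels. Hist1h2aa had 0 counts in every library, Hist1h2ba (a testis H2B) 0 or 1 count, and Hist1h1t (the testis H1) 0 counts in 11 libraries and 8 in WT_DTH replicate 3. Their values are thus at or near the floor of the measurement, and Hist1h1a and Hist1h1b, with 0 to 14 and 0 to 11 counts, were not far above it.

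Members with a loop were also grouped by the annotated length past it. Exon length includes the annotated bases past the loop, so this grouping is built into the divisor of CPM per kilobase. The medians are therefore not compared as levels. Members annotated at least 100 bases past the loop had a median of 0.316 CPM per kilobase (up to 49.8, 22 members), and 20 passed the count filter. Members annotated for less had a median of 0.454 (up to 3.16, 22 members), and 14 passed the filter. That 3.16 belongs to Hist2h2aa1, whose values are given below as uncertain. The 23 members in which no match was found had 0.268 (up to 6.96), and 11 passed the filter. Of these 23, 15 had no annotated UTR long enough to search, so they are not known to lack the loop. Of the 8 members with a mean of at least 50 counts, 5 were in the first set, 1 in the second and 2 in the third. The 1 in the second set was again Hist2h2aa1. Among RNAs that lack an ordinary poly(A) tail, Malat1 had 43939 to 93985 counts and Neat1 8179 to 16621, while the RNA component Rpph1 of RNase P had 37 to 235, Rmrp 0 to 80, Rny1 0 to 2 and Rny3 0. Malat1 and Neat1 carry an A-rich stretch near their end. They are also far longer, with 6983 and 20771 bases of exon, against 319 for Rpph1, 271 for Rmrp, 112 for Rny1 and 102 for Rny3. Per kilobase of exon the mean was 209 CPM for Malat1, 12.5 for Neat1, 8.17 for Rpph1, 1.17 for Rmrp, 0.0296 for Rny1 and 0 for Rny3. The median of all tested genes was 2.13. Since the RNAs without an A-rich stretch are also the shortest, length and type of end cannot be told apart here. The sources used here do not say whether poly(A) RNA was selected or ribosomal RNA was removed, and how this bears on the histone levels was not tested.

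Sequence shared between members limits how counts can be assigned. In 33 members more than 50% of all 50-base stretches also occur in a transcript of another gene, and 21 of these are among the 45 tested. Only 4 members had no such stretch. Hist2h2aa1, an H2A gene, had counts of 11, 56 and 142 in WT_se and 0, 0 and 106 in WT_DTH, and in the knockout 0, 0 and 289 (KO_se) and 0, 368 and 0 (KO_DTH). Of its stretches 89.4% are shared, and it overlaps Gm20634, which had 169 to 889 counts. Whether read assignment set these counts was not tested. The values of Hist2h2aa1 are given as uncertain, and it did not pass the test in any comparison. Hist2h2aa2, at 0 counts throughout, has the same stem-loop and flanks as Hist2h2aa1, at the same distance from the stop codon. Its 0 is given as uncertain too, and the part of read assignment in it was not tested. Hist2h3c1, an H3 gene that also overlaps Gm20634, ranged from 2 to 71 counts within WT_se alone. In all, 7 members overlap exons of another gene on the same strand and 21 on the opposite strand, and whether counting used the strand is not given in the sources used here.

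Summed over all members, the histone level was 146.9, 149.4 and 155.6 CPM in WT_se and 133, 130 and 134 in WT_DTH. In the knockout it was 172, 146 and 163 in KO_se and 159, 159 and 156 in KO_DTH. The group means ± SD (n = 3) were 151 ± 4.47, 132 ± 2.35, 160 ± 13.1 and 158 ± 1.65 CPM. The sum was thus lowest in the 3 WT_DTH libraries, which overlapped neither WT_se (log2 ratio -0.19) nor KO_DTH (0.25 for KO_DTH over WT_DTH). With plain totals the ratio of WT_DTH to WT_se turned to 0.19, and that of KO_DTH to WT_DTH was 0.059. The libraries of KO_se overlapped those of WT_se (0.09) and of KO_DTH (-0.02). In whole nodes, fewer cells of a type and less RNA per cell cannot be told apart.

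The genes that carry out DNA replication moved differently. The 26 genes of the replication list (helicase, polymerase, nucleotide supply and origin licensing) summed to 680, 774 and 765 CPM in WT_se and 848, 993 and 1101 in WT_DTH, and to 1097, 1188 and 1228 in KO_se and 1048, 1135 and 1081 in KO_DTH. The WT_se libraries were lowest and overlapped no other group. Per 100 CPM of replication genes the histone level was 20.4 ± 1.14 for WT_se (mean ± SD, n = 3), against 13.7 ± 1.85 for WT_DTH, 13.7 ± 1.74 for KO_se and 14.5 ± 0.571 for KO_DTH. The WT_se libraries were above those of WT_DTH and KO_se without overlap. As both lists are read in the same library, this ratio does not depend on how totals are scaled. The 20 genes of G2 and mitosis spread more widely, with 125 to 250 CPM across the WT_se libraries, 157 to 264 across WT_DTH, 537 to 665 across KO_se and 341 to 369 across KO_DTH. Without the 6 most abundant members, the remaining 61 histone genes gave sums of 17.9 ± 2.35 CPM (WT_se), 18.3 ± 1.06 (WT_DTH), 19.9 ± 5.41 (KO_se) and 22.6 ± 4.33 (KO_DTH), and every pair of groups compared overlapped. Per 100 CPM of replication genes these 61 gave 2.43 ± 0.308 (WT_se), 1.87 ± 0.142 (WT_DTH), 1.69 ± 0.395 (KO_se) and 2.07 ± 0.310 (KO_DTH). By this ratio WT_se stayed above WT_DTH without overlap, but it overlapped KO_se. The separation of WT_se from KO_se was thus seen only with the 6 most abundant members included.

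**Figure D2:**
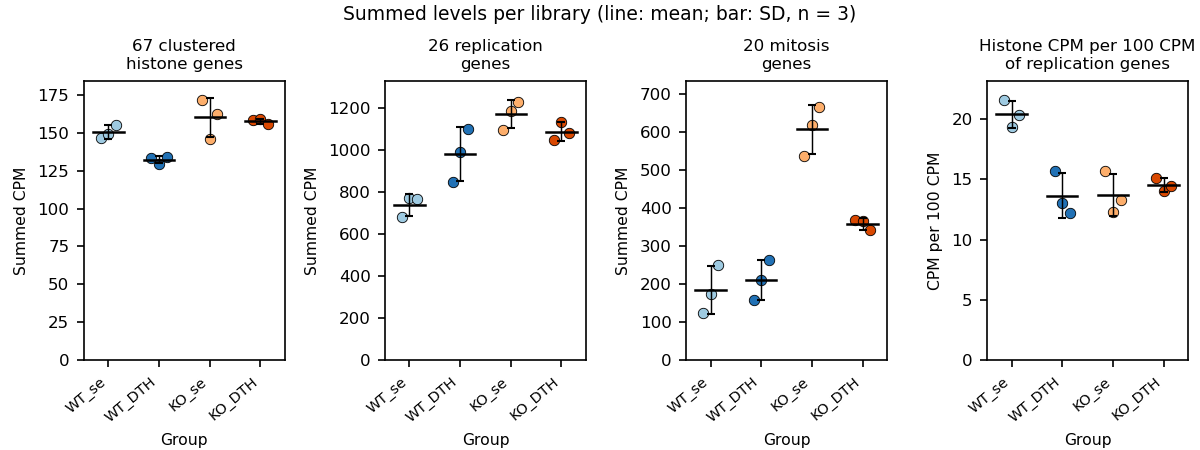
Summed CPM per library for the 67 histone genes, 26 replication genes and 20 mitosis genes, and histone CPM per 100 CPM of replication genes, by group; points are libraries, lines are means and bars are SD (n = 3). Histone sums stay between 130 and 172 CPM, whereas mitosis sums run from 125 to 665 CPM.

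By class, H1 (86.5 ± 2.95 to 64.8 ± 1.57 CPM) and H2B (24.1 ± 0.715 to 17.4 ± 0.287 CPM) were lower in WT_DTH than in WT_se without overlap, and H2A was higher (29.8 ± 2.03 to 37.9 ± 2.66 CPM). H3 (4.13 ± 1.31 to 5.03 ± 1.07 CPM) and H4 (6.07 ± 1.31 to 7.19 ± 0.330 CPM) overlapped. Between KO_se and KO_DTH all 5 classes overlapped. Since Hist1h1c and Hist3h2a make up most of H1 and H2A, these sums largely restate those genes.

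Each member was then tested in 5 comparisons with edgeR's quasi-likelihood test, in 1 model over all 12 libraries, with Benjamini-Hochberg adjustment over 20034 genes and a threshold of 0.05. Of the 67 members 45 passed the count filter and 22 did not. A member can pass it through the group where it is high, so counts over the 45 do not stand for all members. The precision was low: the median standard error (SE) of a log2 fold change was 0.78 among the 45 members for challenge in wild type and 0.255 among all genes tested. For the 8 members with a mean of at least 50 counts the median SE was 0.25, although Hist2h2aa1, one of these 8, had an SE of 2.19. The comparisons share groups, so their values are given side by side.

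After challenge of wild-type mice, 3 of the 45 members passed the test, 2 higher and 1 lower, where 18.7% of all genes tested passed in either direction (9.77% higher, 8.97% lower). The median log2 fold change of the 45 was 0.24, and -0.01 over all genes. That median moved with the setting: it was 0.62 with plain totals, -0.09 with 2 components of the salivary markers as covariates, 0.11 without the most salivary-rich library of every group, 0.37 without WT_se replicate 3 and -0.47 for the 8 members with a mean of at least 50 counts. No direction is therefore given for the members as a set. The 2 groups did not overlap in 12 of the 45 members, against 35.5% of all genes tested. Without adjustment 6 members were under 0.05 (31.1% of all genes). Compared with 9.77% higher over all genes, the replication list had 10 of 26 genes higher and 0 lower (median 0.44), the mitosis list 1 of 20 higher (Aurkb, a mitotic kinase, 0.81 ± 0.22, adjusted p = 0.0235). With plain totals 24 replication and 5 mitosis genes were higher, and with the salivary covariates 1 and 0. Over all 20034 genes 6199 were higher with plain totals and 194 with the covariates.

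Hist1h1c, on chromosome 13, codes for the linker histone H1.2, a subtype present in most somatic cells. Its level was 84.0, 83.7 and 87.2 CPM in WT_se and 65.3, 62.5 and 62.7 CPM in WT_DTH, so every challenged library lay below every sensitized one. The group mean fell from 84.9 ± 1.93 to 63.5 ± 1.54 CPM (log2 fold change -0.42 ± 0.09 SE, adjusted p = 0.00634, edgeR). With plain totals the log2 fold change was -0.04 (adjusted p = 0.85), so the fall is relative to the scaling by TMM. In the knockout Hist1h1c read 90.9, 71.6 and 83.1 CPM in KO_se and 84.5, 73.1 and 84.1 in KO_DTH, which overlap (-0.02 ± 0.09). The difference between the genotypes in the response was 0.40 ± 0.13 and did not pass (interaction, adjusted p = 0.128). With 2 components of the salivary markers as covariates the fall was -0.47 (adjusted p = 0.248), and -0.39 (0.0662) once the most salivary-rich library of every group was dropped.

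Hist3h2a, on chromosome 11, codes for an H2A protein and lies in the small cluster 3. It stood at 25.5, 27.7 and 24.1 CPM in WT_se and at 34.8, 32.3 and 35.9 CPM in WT_DTH. The groups did not overlap, and the mean rose from 25.8 ± 1.80 to 34.4 ± 1.82 CPM (0.41 ± 0.10, adjusted p = 0.0144), in the opposite direction to Hist1h1c. Plain totals gave 0.80 (adjusted p = 0.000173). The call was lost without WT_se replicate 3 (0.37, adjusted p = 0.0542), with the salivary covariates (0.46, 0.277) and after dropping the salivary-rich libraries (0.41, 0.0623). Hist3h2a shares 31.5% of its 50-base stretches, most of them with Trim17 on the same strand. Trim17 was given 6 to 40 counts and Hist3h2a 887 to 2098, and the part of read assignment in the change was not tested.

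Hist1h3a, the most abundant H3 gene, had 6, 9 and 24 counts in WT_se and 34, 87 and 61 in WT_DTH. In CPM this was 0.173, 0.241 and 0.571 against 0.773, 1.60 and 1.07, without overlap. The mean rose from 0.328 ± 0.213 to 1.15 ± 0.417 CPM (1.78 ± 0.58, adjusted p = 0.0494), just inside the threshold. Dropping single libraries ended this call in 8 of 12 cases (adjusted p up to 0.149), among them WT_se replicates 1 and 2 and WT_DTH replicates 2 and 3. It was also lost with the salivary covariates (1.71, adjusted p = 0.545), without the salivary-rich libraries (2.14, 0.103), with only the libraries compared (0.0691), with no count filter (0.0664) and with DESeq2 size factors (0.0507). In the knockout its counts were 15, 49 and 22 in KO_se and 57, 55 and 70 in KO_DTH (1.22 ± 0.56, adjusted p = 0.203), again without overlap.

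The other abundant members did not pass. Hist1h2bc, an H2B gene known for polyadenylated transcripts, read 6.59, 9.18 and 11.1 CPM in WT_se and 6.41, 4.66 and 6.25 in WT_DTH (-0.63 ± 0.22, adjusted p = 0.0606). Those libraries did not overlap, and DESeq2's Wald test, which called 5 members here, called this one. With edgeR it was also called among genes with a mean of at least 50 counts and without WT_se replicate 1. Hist2h2be, likewise polyadenylated at times, gave -0.39 ± 0.27, Hist3h2ba -0.49 ± 0.24 and Hist1h2bg -0.55 ± 0.30, with overlapping groups in each. Hist1h4i gave 0.04 ± 0.28. Hist1h4c, an H4 gene with 9, 18 and 12 counts in WT_se and 60, 72 and 43 in WT_DTH, was chosen for mention after its values were seen. It gave 1.74 ± 0.60 (adjusted p = 0.0623) and passed with DESeq2. With edgeR it passed with only the libraries compared, with plain totals, and without KO_se replicate 1 or 3. By class, 1 of the 3 tested H1 genes and 5 of the 11 tested H2B genes had a positive estimate. So did 7 of 10 H3, 8 of 11 H4 and 8 of 10 H2A genes, against 9847 of all 20034 genes tested. Most of these estimates did not pass the test, and no direction is read from them.

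**Figure D3:**
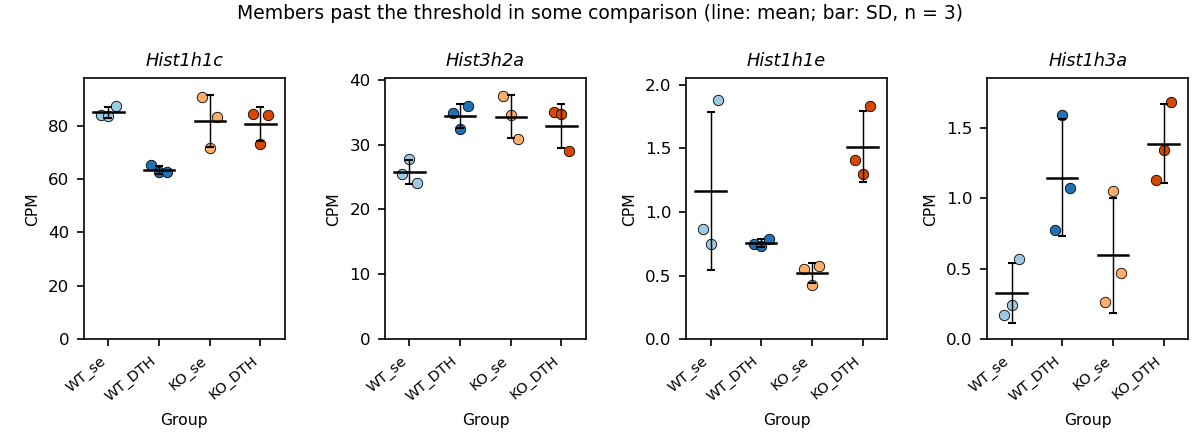
CPM per library of the 4 members that passed the test in some comparison, by group; points are libraries, lines are means and bars are SD (n = 3). In WT_DTH Hist1h1c lies at 62.5 to 65.3 CPM, below the 83.7 to 87.2 CPM of WT_se, while Hist3h2a lies at 32.3 to 35.9 CPM, above the 24.1 to 27.7 CPM of WT_se.

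After challenge of knockout mice, 1 of 45 members passed the test (higher), where 9.67% of all genes tested passed (5.81% higher); 6 members were under an unadjusted 0.05, against 24.1% of all genes. The groups did not overlap in 9 of the 45, against 30.1% of all genes. The median of the 45 was -0.03 and that of all genes -0.00. It ran from -0.06 to 0.10 without 1 library and was -0.17 with the salivary covariates and 0.13 without the salivary-rich libraries. That member was Hist1h1e, a gene for the linker histone H1.4. It had 31, 20 and 27 counts in KO_se and 71, 53 and 76 in KO_DTH, or 0.554, 0.430 and 0.577 CPM against 1.41, 1.30 and 1.83. The groups did not overlap, and the mean rose from 0.520 ± 0.0789 to 1.51 ± 0.280 CPM (1.53 ± 0.40, adjusted p = 0.0312). In wild type it read 0.863, 0.750 and 1.88 CPM in WT_se and 0.750, 0.734 and 0.790 in WT_DTH (-0.62 ± 0.40), with WT_se replicate 3 above the rest. The interaction was 2.16 ± 0.56 and did not pass with edgeR (adjusted p = 0.0689), whereas it was the 1 member called by DESeq2.

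The call for Hist1h1e was lost without any 1 of the 3 KO_se or 3 KO_DTH libraries (adjusted p 0.0525 to 0.11), and the estimate was 0.06 (0.989) with the salivary covariates. Plain totals gave 1.57 (0.0572). The annotated Hist1h1e runs 1153 bases past its loop and overlaps Hist1h2be, an H2B gene, on the same strand, so 32.0% of its 50-base stretches are shared. Among the other members Hist2h2be was 9.40, 7.79 and 5.66 CPM in KO_se and 3.40, 5.71 and 5.69 in KO_DTH (-0.63 ± 0.27, adjusted p = 0.173), overlapping narrowly. Hist3h2a (-0.06 ± 0.10), Hist1h2bc (0.10 ± 0.22), Hist1h4i (-0.04 ± 0.27) and Hist3h2ba (-0.07 ± 0.24) overlapped. In this comparison the mitosis list had 6 of 20 genes lower, among them Kif11, a spindle motor (-0.91 ± 0.19, adjusted p = 0.00837), and the replication list 1 higher and 3 lower of 26. Over all 20034 genes 1164 were higher and 774 lower. With the salivary covariates 1 mitosis gene was lower and 0 replication genes passed, where 25 of all genes were lower and 189 higher. Without 1 library 2 to 10 mitosis genes were lower. Of 8 markers of germinal centre B cells, the dividing B cells of a reactive node, 5 were lower (median -1.68). Among them was Mybl1, a transcription factor (-1.90 ± 0.42, adjusted p = 0.0136). Bcl6, the defining factor of these cells, gave 0.30 ± 0.13 (0.189). All 8 markers were detected and summed to 106.6 to 133 CPM in KO_se and 84.6 to 107.4 in KO_DTH, which overlap narrowly. Only 1 was lower with the salivary covariates, without the salivary-rich libraries or without KO_se replicate 1. The part of these cells in the histone values was not tested.

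Between the genotypes when sensitized, 1 of 45 members passed (higher), against 5.17% of all genes tested (3.76% higher). An unadjusted p under 0.05 was reached by 5 members and by 4406 of the 20034 genes. The groups did not overlap in 5 of the 45, against 28.0% of all genes. The median of the 45 was 0.19 and that of all genes -0.01. It rested on single libraries, at 0.0074 without KO_se replicate 1, 0.036 without KO_se replicate 3 and 0.12 without WT_se replicate 2. It was -0.00022 without the salivary-rich libraries, 0.15 with the covariates and 0.36 with plain totals. The member was again Hist3h2a, with 37.5, 34.5 and 30.9 CPM in KO_se above all 3 WT_se libraries (0.41 ± 0.10, adjusted p = 0.0385). It shares the WT_se libraries with the wild-type challenge. Dropping single libraries ended this call in 5 of 12 cases, namely WT_se replicates 1, 2 and 3 and KO_se replicates 1 and 2 (up to adjusted p = 0.132), and with both salivary alternatives (0.193 and 0.124).

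In the same comparison the replication and mitosis genes differed far more. Of the replication genes 24 of 26 were higher in the knockout (median 0.86), and of the mitosis genes 19 of 20 (median 1.75). Uhrf1, which maintains DNA methylation at the fork, gave 1.49 ± 0.17, Rrm1 and Rrm2, the subunits of ribonucleotide reductase, 0.91 ± 0.12 and 1.68 ± 0.24, and Pcna, the sliding clamp, 0.56 ± 0.11. Cdk1, the mitotic kinase, gave 2.22 ± 0.25 and Mki67, the proliferation marker, 1.69 ± 0.24. With the salivary covariates 15 replication and 18 mitosis genes were called higher, and 11 and 17 after dropping the salivary-rich libraries. Over all 20034 genes 178 and 233 were higher in these settings. Without 1 library 15 to 24 and 16 to 19 were higher, the lowest counts being those without WT_se replicate 1.

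Markers of B-lineage cells differed in the same comparison. Of the 8 germinal centre B cell markers 3 were higher in the knockout (median 1.62), among them Mybl1 (1.89 ± 0.42, adjusted p = 0.0232) and Mef2b (1.56 ± 0.39, 0.0369). They summed to 54.8 to 79.4 CPM in WT_se and 107 to 133 in KO_se. That count was 0 without WT_se replicate 1 or 2 or KO_se replicate 1, 1 without KO_se replicate 2 or 3, and 1 with the salivary covariates. Of 8 plasma cell markers 5 were higher and 1 lower (median 0.83). Jchain, the chain that joins secreted antibodies, gave 2.24 ± 0.44 (0.0131), while Xbp1, the secretory transcription factor, gave -0.86 ± 0.14 (0.00488). The plasma cell markers summed to 388 to 472 CPM in WT_se and 506 to 690 in KO_se, and 0 passed with the covariates. All 16 markers were detected, and their part in the replication, mitosis and histone values was not tested.

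Against these values Hist1h1c gave -0.05 ± 0.09, Hist1h2bc -0.09 ± 0.22, Hist3h2ba 0.03 ± 0.24, Hist1h2bg 0.14 ± 0.30 and Hist2h2be 0.19 ± 0.27, all with overlapping groups. Hist1h4i was 2.19, 3.08 and 2.78 CPM in WT_se and 2.68, 5.44 and 5.30 in KO_se (0.73 ± 0.28, adjusted p = 0.138), where KO_se replicate 1 lay within the wild-type range. Among low members Hist1h2ag, an H2A gene, had 5, 10 and 7 counts in WT_se and 57, 25 and 39 in KO_se (2.03 ± 0.58, adjusted p = 0.0622), without overlap, and it passed with plain totals. Of its stretches 78.9% are shared with other genes. Hist1h1e gave -1.16 ± 0.40 (adjusted p = 0.113). With a median SE of 0.78, a change as large as the replication median of 0.86 could not have been told from 0 in most of the low members, whereas the SE of Hist1h1c was 0.09.

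**Figure D4:**
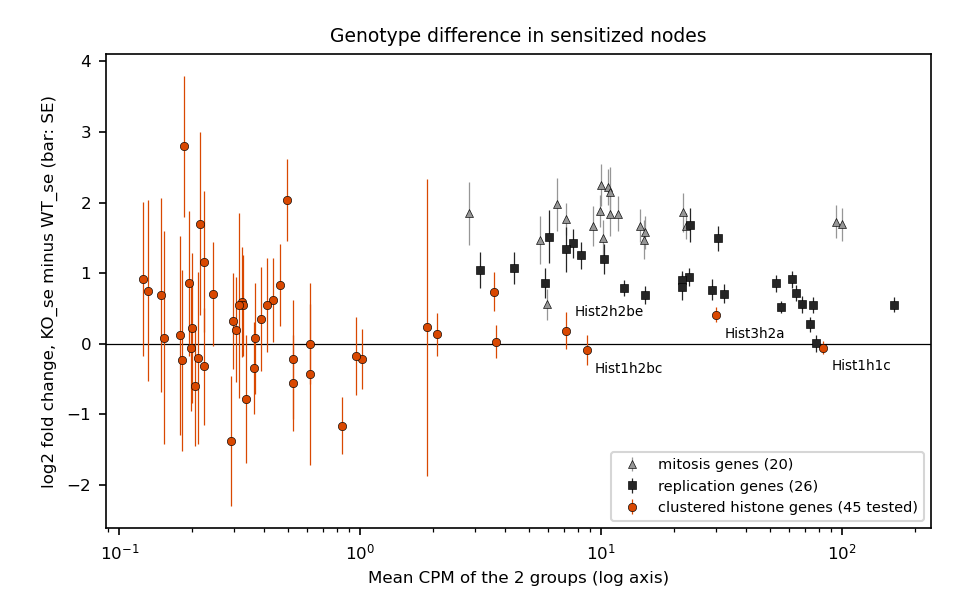
Log2 fold change of KO_se over WT_se against the mean CPM of both groups (log axis) for the 45 tested histone genes, 26 replication genes and 20 mitosis genes; bars are SE. Mitosis genes centre on 1.75 and replication genes on 0.86, while Hist1h1c lies at -0.05 and Hist3h2a at 0.41, and low histone genes scatter with wide bars.

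Between the genotypes after challenge, 0 of 45 members passed with edgeR, where 0.599% of all genes tested did. At an unadjusted p under 0.05 there were 5 (14.1% of all genes), and DESeq2 called 1, Hist1h1c (edgeR 0.34 ± 0.09, adjusted p = 0.0945). Its 3 KO_DTH libraries, at 84.5, 73.1 and 84.1 CPM, were above the 62.5 to 65.3 CPM of WT_DTH. Hist1h2bc was 8.38, 11.1 and 7.61 CPM in KO_DTH and at most 6.41 in WT_DTH (0.64 ± 0.22, adjusted p = 0.185), and Hist1h4i 4.66, 3.68 and 4.72 against at most 3.01 (0.65 ± 0.27, adjusted p = 0.3). In none of these 3 genes did the groups overlap. In all, 10 of the 45 members had groups that did not overlap, against 18.8% of all genes tested. The replication and mitosis lists had 0 genes past the threshold here, with medians of 0.21 and 0.80. With plain totals the median of the 45 members went from 0.17 to -0.02, and that of all genes to -0.18.

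For the interaction, the difference between the challenge responses of the 2 genotypes, 0 of 45 members passed with edgeR, against 2.11% of all genes tested. There were 8 at an unadjusted p under 0.05 (3215 of the 20034 genes), and DESeq2 called 1, Hist1h1e. The estimates were 0.40 ± 0.13 for Hist1h1c, -0.47 ± 0.15 for Hist3h2a and 0.73 ± 0.31 for Hist1h2bc (adjusted p 0.128, 0.114 and 0.252). Hist3h2a passed with plain totals, under which the median of all genes was -0.38.

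The factors that make histone mRNA were read from a list of 15 genes. Of these genes for histone transcription and 3′ end formation, 4 were higher after challenge in wild type, 2 were higher and 2 lower after challenge in the knockout, and 3 were higher in the knockout when sensitized. Over all genes tested, 9.77% were higher after challenge in wild type, 9.67% passed in either direction after challenge in the knockout and 3.76% were higher in the knockout when sensitized. Slbp, which binds the stem-loop, gave 0.18 ± 0.09 (adjusted p = 0.19), -0.29 ± 0.09 (0.0542) and 0.37 ± 0.09 (0.0299) in these 3 comparisons, so it passed only between the sensitized genotypes. Npat, the coactivator of histone gene transcription, gave 0.03 ± 0.13, -0.48 ± 0.13 (adjusted p = 0.0335) and 0.28 ± 0.13, and passed after challenge in the knockout. Cpsf2, a subunit of the cleavage complex, gave 0.50 ± 0.08 (0.00113) after challenge in wild type and 0.48 ± 0.08 (0.00576) for the sensitized genotypes. Between the challenged genotypes 0 of the 15 passed. With the salivary covariates 0 passed in any of the other 3 comparisons, where 221, 214 and 249 of all 20034 genes did. Plain totals gave 9 higher after challenge in wild type, and 6199 over all genes.

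Histone chaperones, which carry new histones to DNA, had 7 of 18 genes higher after challenge in wild type, 2 in the knockout and 4 between the sensitized genotypes, with 0 lower (all genes: 9.77%, 5.81% and 3.76% higher). Asf1b, the chaperone of dividing cells, gave 1.57 ± 0.20 between the sensitized genotypes (adjusted p = 0.00172), and Chaf1a and Chaf1b, subunits of the replication-coupled assembly factor CAF-1, 0.90 ± 0.20 and 0.79 ± 0.15. Daxx, which deposits H3.3, gave 1.55 ± 0.16 after challenge in wild type and 1.83 ± 0.16 in the knockout (adjusted p = 8.11e-05 and 4.73e-05). With the salivary covariates 1 chaperone gene was higher in each of these 3 comparisons, and with plain totals 16 were higher after challenge in wild type. Over all 20034 genes 194, 189 and 178 were higher with the covariates, and 6199 with plain totals.

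The histone variants outside the clusters are mostly polyadenylated and mostly made throughout the cell cycle. Of these 11 genes 3 were higher between the sensitized genotypes (3.76% of all genes). H2afx, whose stem-loop is printed above, gave 0.79 ± 0.12 (adjusted p = 0.00376), H2afz, for H2A.Z, 0.65 ± 0.14 (0.0183) and H3f3a, for H3.3, 0.40 ± 0.08 (0.0126). After challenge in wild type H2afy rose (0.26 ± 0.08) and H2afj fell (-0.39 ± 0.10), and in the knockout H2afy rose (0.28 ± 0.08) and H3f3a fell (-0.39 ± 0.08), where 18.7% and 9.67% of all genes passed in either direction. With the salivary covariates 1 variant was higher between the sensitized genotypes (178 of all 20034 genes). After challenge 0 passed in either genotype (221 of all genes in wild type, 214 in the knockout). The 11 variants summed to 2361 to 2829 CPM over the 12 libraries, lowest in the 3 of WT_se, far above the 130 to 172 CPM of the 67 clustered genes. The shares of salivary and mitochondrial transcripts given above differed between the same groups, and their part in these differences was tested only by the alternatives named.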

How the data were processed

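The 12 libraries were made from total RNA of mandibular lymph nodes with a directional kit, per the labels' protocols. The authors deposited 1 table of estimated counts, all of them whole numbers. Per the submitters' processing notes the tools were fastp 0.23.2, HISAT2 2.2.1 and StringTie 2.2.1, and the build GRCm39. How StringTie treated reads that match several genes, and strand, is not given in the sources used here. Of 56941 IDs, 52000 matched GENCODE M21 (GRCm38), used for symbols, chromosomes, exon lengths and UTR sequence; no coordinates are given because the builds differ. The table had no column of another sample.

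Genes were tested with edgeR 4.0.16 (TMM, filterByExpr with a minimum count of 10, quasi-likelihood, 8 residual degrees of freedom, two-sided) over 20034 genes, in R 4.3.3. Log2 fold changes are ± SE and group values mean ± SD of CPM. DESeq2 1.42.0 served as an alternative. The fits were tested on simulated counts. Summaries and plots used pandas 2.3.3 under Python 3.11.15, with matplotlib 3.10.9. Totals were 36.9 to 58.4 M counts, while 59 of the 67 members had a mean under 50. Libraries of a group differed by 40.6 to 330 chi-squared per degree of freedom, which is more than counting noise. None is therefore a second reading of the same library. Separate preparations from the same tissue could also differ in this way, so technical repeats are not excluded.

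Members, context lists and tests were chosen with earlier results of these data known. Named members are the 4 of highest CPM per kilobase in each class, those past the threshold, and those known from germ cells or for poly(A) transcripts; context genes are up to 4 of smallest p per list, with Slbp, Npat, Pcna and Mki67. Hist3h3, Rn7sk, Terc, Muc19 and Ahsp, also on the lists, were not analysed here. Alternatives were other scalings, filters, tests, sets of libraries, a replicate block and salivary covariates; plain totals in the fit of single genes were added after the data were seen.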

Additional observations from a re-analysis of the deposited data

Results flagged for a closer look

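In 4 genes around the histone pathway, none of them a member, the response to challenge differed between the genotypes by a test of the difference itself (edgeR interaction, adjusted over 20034 genes, of which 2.11% passed). They were 2 of 15 genes for histone transcription and 3′ end formation, 1 of 26 replication genes and 1 of 20 mitosis genes. The 18 chaperone genes and 11 histone variants, also looked at, had 0. Cpsf2, of the 3′ cleavage complex, had an interaction log2 fold change of -0.65 (SE 0.11, adjusted p = 0.0237). Cstf2, which also serves 3′ end formation, had -0.54 (0.12, 0.0395). Mcm2, of the replicative helicase, had -0.54 (0.12, 0.0434), and Cdk1 had -1.53 (0.35, 0.0435). In each the knockout response was the lower one, and the sign held in all 21 alternatives. The calls did not: with the salivary covariates, and without WT_DTH replicate 3, KO_se replicate 1 or KO_se replicate 2, the count over all 20034 genes went from 422 to 0. Leaving out 1 library ended the call in 6 of 12 cases for Cpsf2, 9 for Cstf2, and 10 each for Mcm2 and Cdk1. With the salivary covariates the adjusted p was 0.942, 0.953, 0.942 and 0.688, in the order Cpsf2, Cstf2, Mcm2, Cdk1. With plain totals 22 of 26 replication genes and 15 of 20 mitosis genes were lower in this comparison. In that setting 1920 of all 20034 genes were lower, and the median of all genes was -0.38.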

How the results depend on the processing

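Counts of called members stayed small in every setting tried. For challenge in wild type (3), DESeq2's Wald test gave 5, the salivary covariates 0, leaving out the libraries of largest salivary share 0, and leaving out 1 library 2 to 4. For challenge in the knockout (1), no filter, a mean of at least 50 counts, plain totals, the salivary covariates and leaving out the salivary-rich libraries each gave 0, and leaving out 1 library 0 to 1. For the sensitized genotypes (1), only the libraries compared, the covariates and leaving out the salivary-rich libraries gave 0, plain totals 2, and leaving out 1 library 0 to 1. For the challenged genotypes (0), DESeq2 gave 1. For the interaction (0), DESeq2 and plain totals each gave 1. Leaving out 1 library gave 0 in the last 2 comparisons. The cause of these changes was not tested.

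The log2 ratio of the summed histone level for challenge in wild type (-0.19) was 0.19 with plain totals, -0.11 without the most abundant member of each class and -0.20 to -0.16 without 1 library. For the sensitized genotypes (0.09) these were 0.26, 0.16 and 0.04 to 0.15, and for the challenged genotypes (0.25) plain totals gave 0.059 and leaving out 1 library 0.24 to 0.26. For challenge in the knockout it ran from -0.08 to 0.03 without 1 library. No member past the threshold changed sign in its comparison. Hist1h1c kept its call in all 12 fits without 1 library (adjusted p 0.00362 to 0.0374).

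With the replicate block the counts were 3, 1, 1, 0 and 0, as without it. Replicate numbers did not pair the libraries: of 18 same-numbered pairs 7 had a correlation of deviations over 0.1 (range -0.189 to 0.306), and 1 of 12 libraries correlated best with its own number throughout. Of the 67 members 59 had a mean under 50 counts.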
